A study of Mus musculus with 4 samples.

Results

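Axon guidance ligands and receptors were measured as RNA in whole dorsal root ganglia of mice. These ganglia lie next to the spinal cord and hold the cell bodies of sensory neurons. Members were all genes of the deposited expression matrix whose symbol belongs to the semaphorin, plexin, neuropilin, ephrin, Eph receptor, Slit, Robo, netrin, netrin-G, Unc5 or Dcc families, which gave 64 of 14405 genes. One of the 64, Unc50, matched by its letters alone and encodes no netrin receptor, so 63 are guidance genes. Another 9 of the 72 genes in the family lists were not analysed here. The comparison was between 2 groups of 2 samples, all from mice of mixed strain aged 10 weeks. One group was labelled wild type. The other was labelled Prdm12-/Fl; AvilCreERT2/+, that is, with 1 null and 1 floxed allele of the transcription factor gene Prdm12 and 1 copy of a Cre recombinase fused to a modified oestrogen receptor. Such a Cre needs tamoxifen, and here it is tied to Avil, a gene of sensory neurons. The labels name no tamoxifen treatment and give the wild type no Cre, so loss of Prdm12 and the presence of Cre cannot be told apart. They do not say whether samples came from single animals or pools, and the p-values reflect only how far these samples vary, possibly for technical reasons.

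Guidance molecules steer growing axons by attraction or repulsion, and many stay expressed in the adult ganglion and nerve, where they also act in blood vessels, glia and immune cells. Semaphorins signal through plexins, and the secreted ones mostly need a neuropilin as co-receptor. Ephrins are ligands tethered to the cell surface, ephrin-A by a lipid anchor and ephrin-B by a membrane-spanning segment, and they bind the Eph receptor tyrosine kinases. Slits are secreted ligands of Robo receptors, and netrins attract axons through Dcc and repel them through Unc5 receptors.

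Levels are in FPKM, a read count scaled to transcript length and library size, a scale that allows levels of different genes to be compared. Prdm12, the targeted gene, was at 7.58 and 10.7 FPKM in the wild types and 1.05 and 1.5 FPKM in the mutants, 7.16-fold lower (log2 difference -2.14, limma adjusted p = 0.180). Avil, to which the Cre is tied, was at 78.4, 124, 102 and 164 FPKM in wild type 1, wild type 2, mutant 1 and mutant 2, the order kept for every run of 4 values. Each of the 10 sensory neuron markers listed was present in every sample, with sums between 4601 and 6800 FPKM. Wild type 2 stood apart in the Y-linked gene Eif2s3y, at 0.0252 FPKM against 21.3 to 24.7 FPKM in the other samples. In Xist, expressed from the inactive X chromosome of females, it was at 21.1 FPKM against 0.00426 to 0.0295 FPKM. This is the pattern of a female sample beside male ones, so the groups were not matched in sex. The part of sex in the differences below was not tested. Mutant 2 had the most myelin, muscle and adipocyte transcripts. Its summed Schwann cell and myelin markers were 21496 FPKM against 8350 to 10439 FPKM in the other samples. The skeletal muscle markers summed to 281, 2184, 125 and 4332 FPKM and the adipocyte markers to 485, 764, 278 and 2343 FPKM across the 4 samples. The 12 fibroblast and meninges markers were lower in both mutants in sum, at 19104 and 17889 FPKM in the wild types and 8997 and 6103 FPKM in the mutants, and 6 of the 12 were lower without overlap. Without the prostaglandin D synthase gene Ptgds that sum was 6005, 4834, 5797 and 3078 FPKM, and the groups overlapped. All 6 erythrocyte markers were higher in both mutants, with sums of 3190, 3078, 6097 and 6217 FPKM.

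All 64 members reached the minimum for testing, a mean of 1 FPKM in either group. The most abundant guidance genes were Sema3b, with a mean of 89.1 FPKM over the 4 samples, Ntn1 with 21.6 FPKM and Efnb1 with 19.6 FPKM. The median member had a mean of 5.02 FPKM, and the lowest was Epha7 at 0.895 FPKM. With limma on log2(FPKM + 1), 0 of 64 members and 0 of 14040 genes (0%) passed an adjusted p of 0.05. At an unadjusted p under 0.05 there were 9 members, or 14.1%, beside 4.36% of all genes tested. Of these 9, 7 were lower in the mutants (10.9% of members beside 3.01% of all genes) and 2 were higher (3.12% beside 1.35%). The 7 were Sema3d, Epha3, Epha4, Epha8, Robo1, Efnb2 and Plxna2, and the 2 were Sema4a and Sema6c. This count of 9 was 5 without wild type 1, 7 without wild type 2, 19 without mutant 1 and 5 without mutant 2, beside 3.12%, 3.74%, 12.8% and 3.44% of all genes. The authors' deposited table of 150 genes was limited by them to genes past cut-offs on FPKM, fold change and false discovery rate. It holds 4 members, Sema3d, Epha3, Epha4 and Robo1, or 6.25% of members beside 1.03% of the genes in the matrix. All 4 were lower in the mutants, beside 0.896% of the genes in the matrix. Most of the table was lower too, at 129 of its 149 genes found in the matrix. Exact 2-sided permutation of 2 against 2 samples gives p = 0.333 at the smallest.

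**Figure D1:**
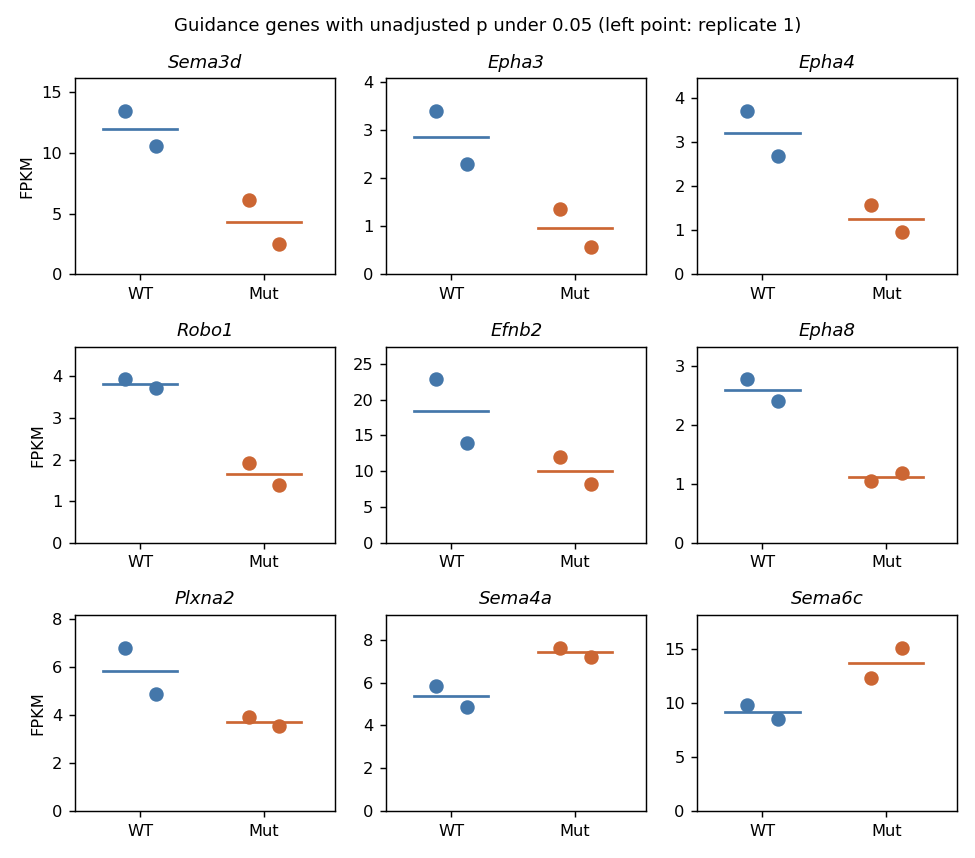
FPKM on the vertical axis, from 0, in wild type (blue) and mutant (orange) samples for the 9 members with a limma unadjusted p under 0.05. Points are samples, replicate 1 on the left, and lines are group means; the groups do not overlap in any of the 9 panels.

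The 250 bases before the start of 5 of these genes are shown. They are the 4 genes of the authors' table and Sema6c, the member with the smallest unadjusted p among those that were higher. The sequences are from RefSeq on GRCm38.p6, the assembly of mm10, at the most upstream start listed, in the direction of the gene. Coordinates are chr5:12382916-12383165 (plus strand) for Sema3d, chr16:63864176-63864425 (minus strand) for Epha3, chr1:77515089-77515338 (minus strand) for Epha4, chr16:72662899-72663148 (plus strand) for Robo1 and chr3:95160170-95160419 (plus strand) for Sema6c. Capitals mark matches, on either strand, to the GC box GGGCGG, the CCAAT box CCAAT, the TATA box TATAAA, the forkhead motif GTAAACA and the cyclic AMP response element TGACGTCA.
Sema3d: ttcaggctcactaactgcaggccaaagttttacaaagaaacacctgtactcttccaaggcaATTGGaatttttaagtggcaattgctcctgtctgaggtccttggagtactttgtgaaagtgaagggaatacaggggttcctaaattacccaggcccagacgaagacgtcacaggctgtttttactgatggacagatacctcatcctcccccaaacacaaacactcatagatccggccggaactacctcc
Epha3: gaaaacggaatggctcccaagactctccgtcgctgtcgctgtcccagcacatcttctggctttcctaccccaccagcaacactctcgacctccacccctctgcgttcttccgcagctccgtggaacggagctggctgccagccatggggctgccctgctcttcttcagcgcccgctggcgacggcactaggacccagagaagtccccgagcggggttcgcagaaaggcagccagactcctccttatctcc
Epha4: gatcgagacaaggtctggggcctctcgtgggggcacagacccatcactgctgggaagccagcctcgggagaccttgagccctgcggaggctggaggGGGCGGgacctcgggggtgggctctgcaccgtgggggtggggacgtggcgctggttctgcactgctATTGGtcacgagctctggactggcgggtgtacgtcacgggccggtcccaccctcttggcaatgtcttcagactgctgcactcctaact
Robo1: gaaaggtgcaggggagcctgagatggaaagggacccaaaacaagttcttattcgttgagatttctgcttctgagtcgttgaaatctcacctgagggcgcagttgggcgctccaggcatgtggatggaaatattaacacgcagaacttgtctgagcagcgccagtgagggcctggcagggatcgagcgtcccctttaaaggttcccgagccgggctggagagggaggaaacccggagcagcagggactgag
Sema6c: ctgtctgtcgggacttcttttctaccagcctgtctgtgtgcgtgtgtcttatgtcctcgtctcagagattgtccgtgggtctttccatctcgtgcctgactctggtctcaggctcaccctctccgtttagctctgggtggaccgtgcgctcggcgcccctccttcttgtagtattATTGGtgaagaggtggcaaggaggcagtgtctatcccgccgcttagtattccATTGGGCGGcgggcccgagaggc

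In these windows Epha3 and Robo1 held none of the marked motifs, Sema3d held 1 CCAAT box, Epha4 held 1 GC box and 1 CCAAT box, and Sema6c held 2 CCAAT boxes and 1 GC box, which overlaps the second of them. The Robo1 window lies inside the longer GENCODE gene given below for Robo1, in none of its exons. The Epha4 window shares 59 bases with an exon of the annotated gene Gm28386. The upstream window of Sema3d was 46.8% G and C, with 4 CpG dinucleotides. That of Epha8, another member lower in the mutants, was 84.0% G and C with 46 CpG dinucleotides and 6 GC boxes, so the members that were lower do not share one base composition. Windows were found for 55 members. Their median was 65.2% G and C, beside 59.6% in 10603 tested genes with a window. A GC box lay in 40 of the 55 (72.7%, beside 58.4% of tested genes and 33.0% of all 27025 promoters in the table), and a CCAAT box in 15 (27.3%, beside 36.0% and 34.5%). A TATA box lay in 2 (3.64%, beside 6.58% and 13.0%), a forkhead motif in 0 (beside 2.03% and 3.06%) and a cyclic AMP response element in 1 (1.82%, beside 2.66% and 1.60%). The E-box CANNTG, not marked by capitals, lay in 24 (43.6%, beside 57.7% and 66.1%). Of 13 members with a window that were lower without overlap, 8 held a GC box and 6 a CCAAT box. Of 11 that were higher without overlap, 9 held a GC box and 2 a CCAAT box.

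Among the ligands, the secreted semaphorins included the member with the largest difference. Sema3d (ENSMUSG00000040254.11, chromosome 5, 12383385 to 12588948 in mm10), known for roles in heart and vessel development, was at 13.4 and 10.5 FPKM in the wild types against 6.07 and 2.46 FPKM in the mutants. Both mutants lay below both wild types, and mutant 2 was the lowest. The means were 11.95 ± 2.05 and 4.27 ± 2.55 FPKM (SD, n = 2 each), 2.80-fold lower, and the log2 difference was -1.38 (standard error 0.355) and its 95% interval ran from -2.27 to -0.49 (limma unadjusted p = 0.00978, adjusted p = 0.790). It was -0.86 without mutant 2. In the authors' deposited table its log2 change is -1.49, at q = 0.00742. Sema3c, which guides migrating cells of the outflow tract, was also lower in both mutants, at 15.0, 12.3, 11.8 and 8.55 FPKM across the 4 samples (log2 difference -0.40, and -0.18 without mutant 2, limma adjusted p = 0.994).

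Other secreted semaphorins went the opposite way. Sema3b, the most abundant member of all 64, was at 72.9 and 68.3 FPKM in the wild types against 82.4 and 133 FPKM in the mutants. The groups did not overlap, and mutant 2 stood well above the rest. The log2 difference was 0.56 ± 0.254 (standard error; limma adjusted p = 0.994), and it was 0.22 without mutant 2 and 0.90 without mutant 1. Sema3g was at 6.02, 5.70, 7.04 and 8.69 FPKM (log2 difference 0.36, and 0.23 without mutant 2) and Sema3f, a repellent that acts through neuropilin 2, at 4.55, 5.27, 5.32 and 5.58 FPKM (0.13). Sema3e, the ligand of plexin D1, had overlapping groups between 1.15 and 1.56 FPKM. The secreted semaphorins thus held 3 members that were higher and 2 that were lower without overlap, of 6 tested, beside 12.5% and 19.6% of all genes.

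The membrane-bound semaphorins were higher in the mutants more often than lower. Of 12 tested, 11 had a log2 difference above 0 and 7 were higher without overlap, beside 12.5% of all genes tested, while 0 were lower without overlap, beside 19.6% of all genes. Their median log2 difference was 0.30, beside -0.00476 over all 14040 genes. It was 0.18 without mutant 2, 0.35 without mutant 1, 0.22 without wild type 1 and 0.28 without wild type 2. Sema6c (ENSMUSG00000038777.19, chromosome 3, 95160457 to 95174024), of the transmembrane semaphorins that bind A-type plexins, was at 9.86 and 8.56 FPKM in the wild types against 12.3 and 15.1 FPKM in the mutants. Both mutants were above both wild types. Its log2 difference was 0.53 (standard error 0.169) and its 95% interval ran from 0.10 to 0.95 (limma unadjusted p = 0.0235, adjusted p = 0.994).

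Sema4a, which acts in immune cells and in the retina, was at 5.83 and 4.89 FPKM in the wild types against 7.65 and 7.21 FPKM in the mutants. Here mutant 1 was slightly above mutant 2. The log2 difference was 0.41 ± 0.153 (standard error; limma unadjusted p = 0.0400, adjusted p = 0.994). Sema4g was at 4.29, 3.17, 4.48 and 7.54 FPKM across the 4 samples, so the gap between wild type 1 and mutant 1 was small (log2 difference 0.54, and 0.22 without mutant 2). Sema5a, which carries thrombospondin repeats and binds plexin B3, was at 12.8, 10.2, 15.3 and 14.3 FPKM (0.35, and 0.19 without wild type 2). Sema7a, held to the membrane by a lipid anchor, was at 7.45, 7.59, 8.55 and 11.3 FPKM (0.35, and 0.17 without mutant 2). Sema4d, the ligand of plexin B1, and Sema4c were higher in both mutants with log2 differences of 0.26 and 0.25. The groups overlapped for Sema4b, Sema4f, Sema6a, Sema6b and Sema6d, whose log2 differences ran from -0.03 for Sema6b to 0.33 for Sema4f.

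Semaphorins of both kinds summed to 189 and 175 FPKM in the wild types and 201 and 259 FPKM in the mutants. Of these sums Sema3b alone gave 72.9 and 68.3 FPKM in the wild types and 82.4 and 133 FPKM in the mutants. Mutant 2 was the highest of the 4 samples for 10 of the 18 semaphorins, and for 36.4% of all genes tested. It was also the sample with the most Schwann cell and myelin transcripts. Of these markers 5 of 10 were higher in both mutants, beside 12.5% of all genes, and 0 of 10 were at 0 in any sample. For Mal, Mbp and Prx, mutant 1 was barely above wild type 1. The summed list was 10297 FPKM in mutant 1, below the 10439 FPKM of wild type 1. The part of these transcripts in the semaphorin differences was not tested. In whole ganglia, fewer cells of a type and less RNA per cell cannot be told apart.

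**Figure D2:**
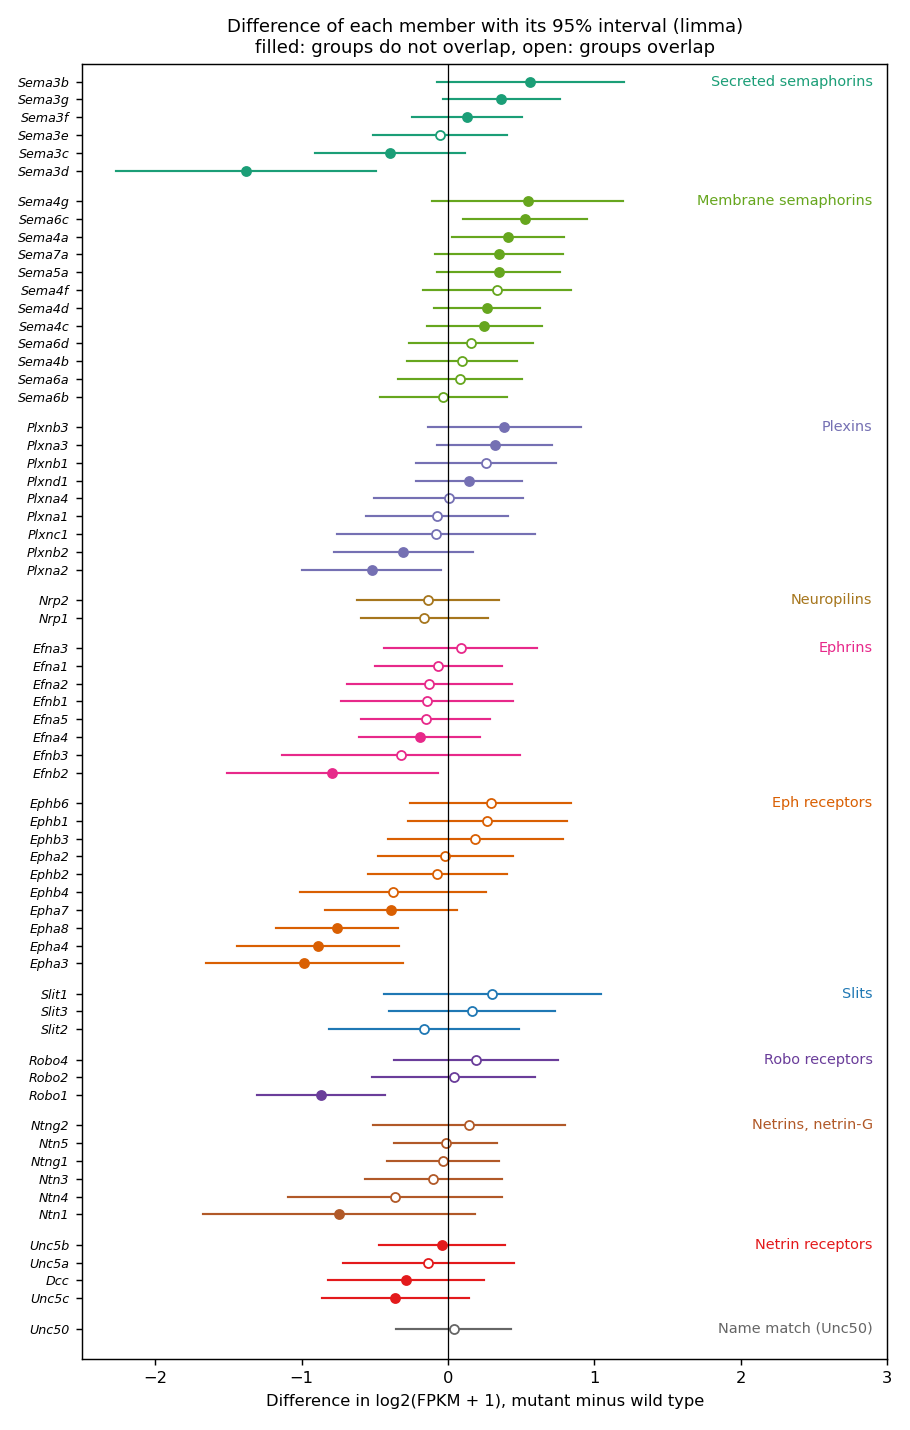
Difference in log2(FPKM + 1), mutant minus wild type, on the horizontal axis for each of the 64 members, grouped by family, with the 95% interval from limma. Filled points are members whose groups do not overlap; 11 of 12 membrane semaphorins lie above 0, and all 5 EphA receptors lie below it.

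The semaphorin receptors showed no common direction. Of 9 plexins, 3 were higher and 2 lower without overlap, beside 12.5% and 19.6% of all genes, and their median log2 difference was 0.01. Plxna2 (ENSMUSG00000026640.12, chromosome 1, 194618218 to 194816869), a receptor for secreted semaphorins with a neuropilin and for Sema6a directly, was at 6.83 and 4.89 FPKM in the wild types against 3.91 and 3.56 FPKM in the mutants. Both mutants were lower, and wild type 1 was the highest sample. On the log2 scale the difference was -0.52 ± 0.189 (standard error; limma unadjusted p = 0.0368, adjusted p = 0.994), and it was -0.32 without wild type 1. Plxnb2, a receptor of the Sema4 group, was at 20.1, 16.11, 16.09 and 12.8 FPKM, so wild type 2 and mutant 1 were almost equal (log2 difference -0.31, and -0.15 without mutant 2). The 3 plexins that were higher were Plxnb3 at 3.26, 3.24, 3.67 and 5.6 FPKM, Plxna3 at 2.12, 2.18, 2.73 and 3.14 FPKM and Plxnd1 at 15.6, 15.2, 18.0 and 16.3 FPKM. Their log2 differences were 0.39, 0.32 and 0.14, and that of Plxnb3 was 0.14 without mutant 2. Plxna3 and Plxnb3 both lie on the X chromosome, 557 kb apart. The 2 wild types, which differed in Xist, were close to each other in both genes, and a part of sex was not tested. Plxna1, Plxna4, Plxnb1 and Plxnc1, the last a receptor of Sema7a, had overlapping groups.

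Both neuropilins were abundant and overlapped between the groups. Nrp1, which also binds vascular endothelial growth factor, was at 20.6 and 17.5 FPKM in the wild types against 18.6 and 15.3 FPKM in the mutants (log2 difference -0.16, 95% interval -0.60 to 0.27). Nrp2 was at 14.5, 10.8, 12.3 and 10.3 FPKM (-0.14, 95% interval -0.62 to 0.34). Both intervals include 0 and values of either sign.

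Of the families and subfamilies summarised, EphA receptors had the median farthest from 0. Of 5 tested, all had log2 differences below 0 and 4 were lower in the mutants without overlap, beside 19.6% of all genes tested. The median log2 difference was -0.76, and it lay between -0.83 and -0.68 with any 1 sample left out. Epha3 and Epha7 reached the minimum for testing only through the wild types, so a lower mutant mean was fixed for them by that filter. Epha4 (ENSMUSG00000026235.14, chromosome 1, 77367185 to 77515088), which is unusual in binding ephrins of both kinds, was at 3.70 and 2.69 FPKM in the wild types against 1.56 and 0.963 FPKM in the mutants. The log2 difference was -0.89 (standard error 0.220) and its 95% interval ran from -1.44 to -0.34 (limma unadjusted p = 0.00832, adjusted p = 0.744). The authors' deposited table gives -1.34 for it with q = 0.0182.

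Epha3 (ENSMUSG00000052504.7, chromosome 16, 63543534 to 63864175), a receptor of ephrin-A5, was at 3.40 and 2.30 FPKM in the wild types against 1.36 and 0.580 FPKM in the mutants. The means of 2.85 ± 0.777 and 0.971 ± 0.553 FPKM (SD, n = 2 each) differ 2.94-fold. Its log2 difference was -0.98 ± 0.268 (standard error; limma unadjusted p = 0.0125, adjusted p = 0.805), and the authors' deposited table gives -1.56 with q = 0.0225. Since the values are low, the added pseudocount of 1 FPKM shrinks this log2 difference; with 0.1 FPKM instead it was -1.54, and that of Epha8 was -1.14. Epha8 (ENSMUSG00000028661.8, chromosome 4, 136929419 to 136956816) had closely spaced replicates, at 2.77 and 2.40 FPKM in the wild types against 1.05 and 1.18 FPKM in the mutants. Its log2 difference was -0.76 ± 0.166 (standard error; limma unadjusted p = 0.00493, adjusted p = 0.602), and mutant 2 was not the lowest sample. Epha7 was at 1.03, 1.27, 0.634 and 0.642 FPKM (-0.39), and Epha2, a receptor of epithelia, overlapped at 2.45, 1.74, 2.01 and 2.06 FPKM (-0.02).

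None of the 5 EphB receptors had groups without overlap, beside 32.1% of all genes, and their median log2 difference was 0.19. Whether the EphA and EphB receptors differed from each other was not tested. Ephb4, the venous receptor of ephrin-B2, was at 14.7, 10.5, 11.5 and 7.54 FPKM across the 4 samples (log2 difference -0.38). Ephb6, whose kinase domain is inactive, was the most abundant Eph receptor, at 11.5, 12.6, 12.1 and 18.3 FPKM (0.29). Ephb1, Ephb2 and Ephb3 lay between 0.969 and 3.18 FPKM in all samples.

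The ephrins were lower in the mutants in 7 of 8 cases by the sign of the log2 difference, but 2 of 8 were lower without overlap, beside 19.6% of all genes. Efnb2 (ENSMUSG00000001300.16, chromosome 8, 8617434 to 8661242), the ephrin of arterial endothelium, was at 22.9 and 14.0 FPKM in the wild types against 11.9 and 8.24 FPKM in the mutants. The gap between wild type 2 and mutant 1 was small beside that between the wild types. Its log2 difference was -0.79 ± 0.286 (standard error; limma unadjusted p = 0.0364, adjusted p = 0.994), and it was -0.45 without wild type 1 and -1.13 without wild type 2. The other ephrin-B genes overlapped, Efnb1 at 23.8, 17.4, 21.6 and 15.5 FPKM and Efnb3 at 7.51, 5.17, 6.77 and 3.31 FPKM. In both, mutant 2 was lowest and wild type 1 highest, and the median of the 3 ephrin-B genes was 0.08 without mutant 2. Among the lipid-anchored ephrins, Efna1 was at 14.7, 18.9, 15.5 and 16.2 FPKM (log2 difference -0.07) and Efna4 was lower in both mutants, at 1.89, 2.22, 1.73 and 1.60 FPKM (-0.19). Efna2, Efna3 and Efna5 overlapped. The endothelial markers summed to 145 and 163 FPKM in the wild types against 141 and 134 FPKM in the mutants, with 2 of 9 lower without overlap and none at 0, and their part was not tested.

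Of the 6 Slit and Robo genes, Robo1 alone had groups that did not overlap, beside 32.1% of all genes. Robo1 (ENSMUSG00000022883.11, chromosome 16, 72308306 to 73046095), a receptor of Slits that mediates repulsion, was at 3.93 and 3.73 FPKM in the wild types against 1.92 and 1.39 FPKM in the mutants. The wild types were close together and both mutants were at about 1.65 FPKM on average, against 3.83 FPKM, 2.31-fold lower. The log2 difference was -0.87 (standard error 0.174) and its 95% interval ran from -1.31 to -0.43. It had the smallest unadjusted p of the 64 members (limma unadjusted p = 0.00324, adjusted p = 0.555), and the authors' deposited table gives -1.21 with q = 0.00742. With any 1 sample left out the difference ran from -1.01 to -0.73. Robo2, which lies 846 kb away on the same chromosome and encodes another Slit receptor, was at 5.06, 7.59, 5.73 and 7.17 FPKM, with a log2 difference of 0.04 and a 95% interval of -0.52 to 0.59. Robo4, a receptor of endothelial cells, was at 2.33, 3.23, 3.97 and 2.68 FPKM (0.19). The ligands overlapped, Slit2 at 10.4, 5.90, 7.03 and 6.82 FPKM (-0.16), Slit3 at 3.63, 2.59, 4.31 and 2.91 FPKM (0.16) and Slit1 at 1.79, 3.63, 2.81 and 4.15 FPKM (0.30).

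Netrin 1 was the most abundant netrin. Ntn1 was at 29.9 and 23.5 FPKM in the wild types against 22.9 and 10.3 FPKM in the mutants, so mutant 1 was just below wild type 2 and mutant 2 was far lower. On the log2 scale the difference was -0.74 ± 0.371 (standard error; limma adjusted p = 0.994), and it was -0.20 without mutant 2 and -1.28 without mutant 1. Ntn4, a netrin of basement membranes, was at 12.9, 16.1, 14.8 and 8.08 FPKM and was low in mutant 2 only (-0.36). Ntn5 hardly varied, between 4.25 and 4.4 FPKM. The netrin-G genes, whose products are anchored to the membrane and bind other partners than Dcc, overlapped, Ntng1 at 5.25 to 6.20 FPKM and Ntng2 at 4.03 to 6.96 FPKM, as did Ntn3.

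The netrin receptors were scarce, with means of 0.912 to 1.55 FPKM, and all 4 had log2 differences below 0. Dcc was at 1.31, 1.05, 1.03 and 0.568 FPKM (-0.29), Unc5c at 1.40, 0.910, 0.647 and 0.689 FPKM (-0.36), Unc5b at 1.03, 0.986, 0.983 and 0.921 FPKM (-0.04) and Unc5a at 1.27, 2.07, 1.72 and 1.14 FPKM (-0.13). The first 3 were lower in both mutants without overlap, beside 19.6% of all genes. These 3 reached the minimum of 1 FPKM only through their wild-type means, so a lower mutant mean was fixed by that filter. Without wild type 1, Unc5b and Unc5c fell below the minimum. For Dcc and Unc5b wild type 2 and mutant 1 were nearly equal. With a pseudocount of 0.1 FPKM the log2 difference was -0.55 for Dcc and -0.68 for Unc5c. Depth is unknown for these files, so the counting error at such levels cannot be given. Unc50, the match by name, was at 49.3 and 49.8 FPKM in the wild types against 54.9 and 47.3 FPKM in the mutants.

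**Figure D3:**
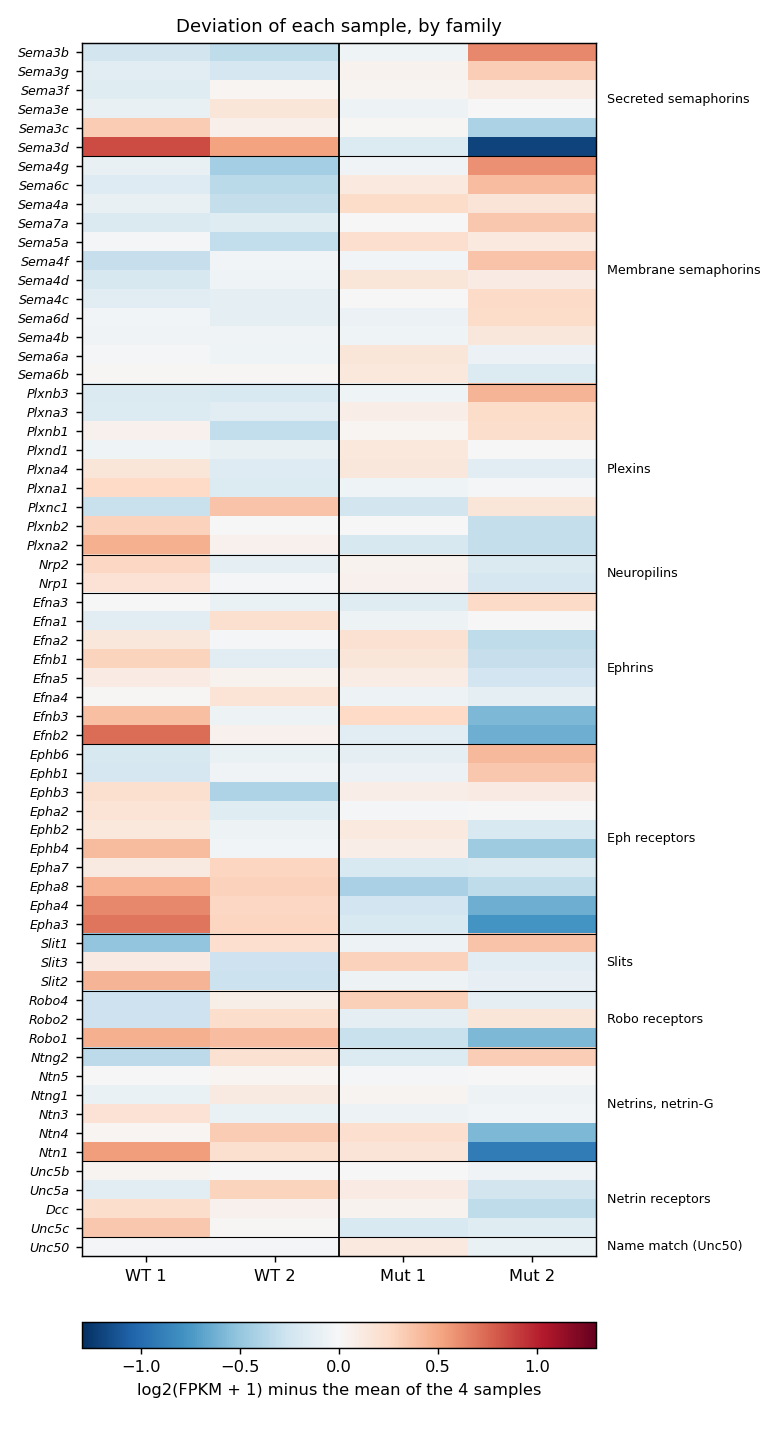
Colour gives log2(FPKM + 1) of each sample minus the mean of the 4 samples (red above, blue below) for the 64 members in rows, grouped by family. Mutant 2 is red for most membrane semaphorins, and its deepest blue is at Sema3d, then Ntn1 and Epha3.

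Over all members, 28 of 64 had groups that did not overlap (43.8%, beside 32.1% of all genes). Of these, 13 were higher in the mutants (20.3%, beside 12.5%) and 15 were lower (23.4%, beside 19.6%). With libraries scaled by their median ratio, 17 were higher and 10 lower (15.7% and 15.9% of all genes), and quantile normalization gave 18 and 10 (16.7% and 15.4%). Under each of these scalings the 13 higher members stayed higher and 10 of the 15 lower ones stayed lower. The median log2 difference of the 64 was -0.03, beside -0.00476 over all genes. Among the 15 lower members, wild type 1 was highest for 13 and mutant 2 lowest for 12. Of the 15, Epha3, Epha7, Dcc, Unc5b and Unc5c reached the minimum for testing through the wild types alone, which fixed their direction. The fibroblast and meninges marker list was lower in sum in both mutants too, at a median log2 difference of -0.66. Of its markers, 6 of 12 were lower without overlap, 0 higher and none at 0 in any sample. Those lower were Aldh1a2, Foxc1, Igf2, Ptgds, Slc22a6 and Slc6a13, while Col1a1, Col1a2, Dcn, Lum, Pdgfra and Tbx18 overlapped. Without Ptgds the sums overlapped and the median was -0.41. The part of this list in the lower members was not tested.

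**Figure D4:**
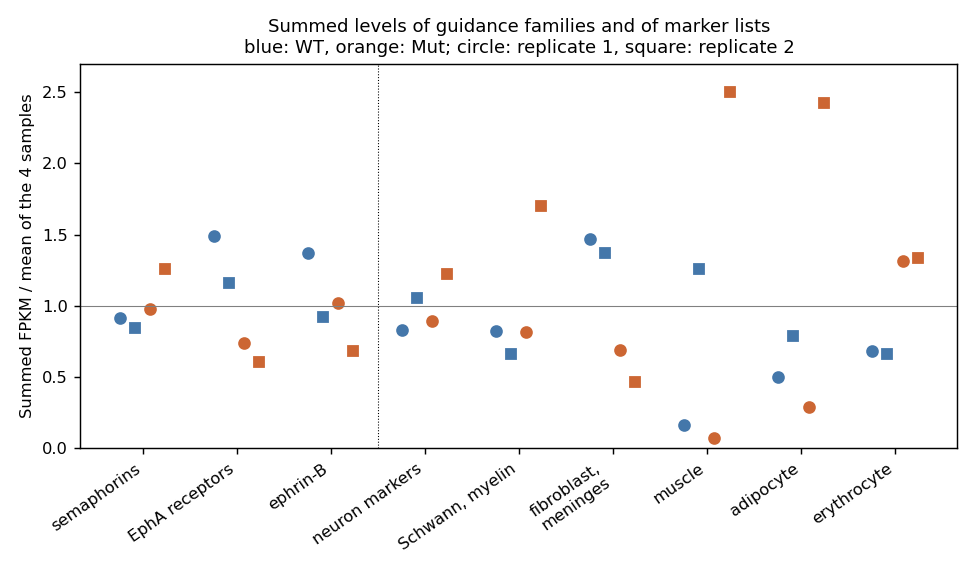
Summed FPKM of 3 guidance families and of 6 marker lists in each sample, divided by the mean of the 4 samples, on the vertical axis from 0. Both mutants are below both wild types for EphA receptors and for fibroblast and meninges markers, and above them for semaphorins and erythrocyte markers. Without Ptgds the fibroblast and meninges sums overlapped. Sema3b alone gave 133 of the 259 FPKM of the semaphorins in mutant 2.

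In the GENCODE M21 annotation, members that were lower had a longer median span than those that were higher. The median gene span was 156 kb for the 15 members lower without overlap, 51.5 kb for the 36 with overlap and 15.6 kb for the 13 that were higher. Over all 13006 protein-coding genes with a span, the same medians were 33.6, 23.3 and 17.8 kb. Robo1 spans 738 kb, Epha3 321 kb, Sema3d 206 kb, Plxna2 199 kb and Epha4 148 kb, while Sema6c spans 13.6 kb and Sema4a 25.2 kb. Lower members with shorter spans included Efna4 at 4.64 kb, Epha8 at 27.4 kb and Efnb2 at 43.8 kb, while Sema5a at 452 kb was higher and long. The median span was 45.1 kb for all 64 members and 24.2 kb for all 13006 genes. The 12 members over 300 kb had a median log2 difference of -0.01, with 4 lower and 1 higher without overlap. Of all 388 genes over 300 kb, 25.8% were lower and 13.1% higher without overlap. The lower members over 300 kb were Robo1, Epha3, Dcc and Unc5c. For all but Robo1 the minimum for testing fixed a lower mutant mean. The 15 lower members also had lower levels, at a median of 2.23 FPKM against 6.86 FPKM for the 13 higher ones. Among the 15 are Epha3, Epha7, Dcc, Unc5b and Unc5c, with means of 0.895 to 1.91 FPKM. These reached the minimum for testing through the wild types alone, so the gap in levels is not independent of that filter. Across the 64 members the Spearman rank correlation between span and log2 difference was -0.31, and across all 13006 genes -0.13. It was -0.61 in the 18 semaphorins and -0.24 in the other 46 members. These describe genes within the same 4 libraries, which are not independent replicates.

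**Figure D5:**
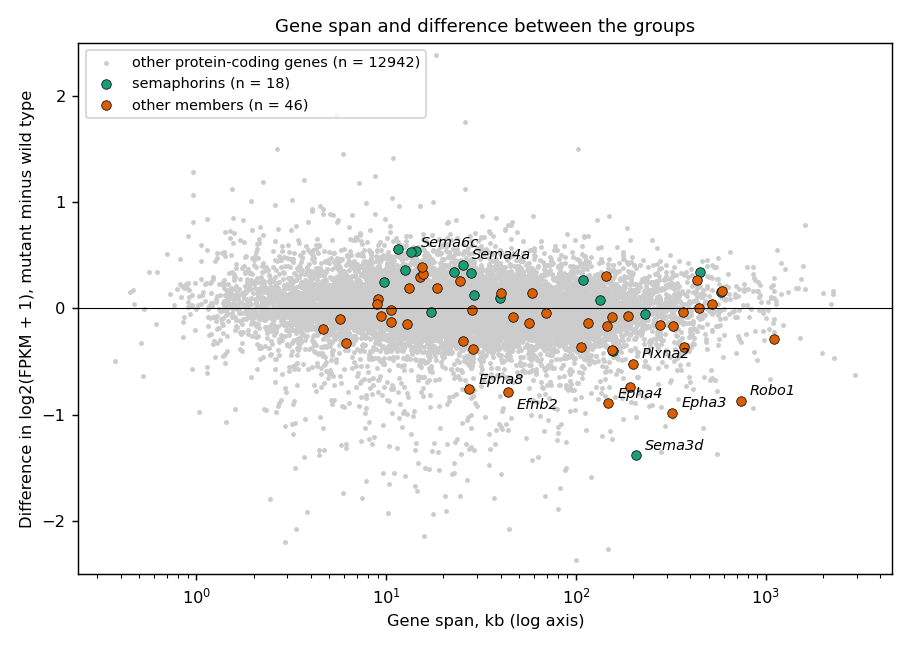
Gene span in kb (log axis) against the difference in log2(FPKM + 1), mutant minus wild type, for 18 semaphorins (green), the other 46 members (orange) and all other protein-coding genes tested (grey). The named genes are the 9 members at an unadjusted p under 0.05; Robo1, Epha3 and Sema3d lie at long spans and low values.

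Other genes of the guidance pathways were read from lists of co-receptors, partner ligands and signalling proteins. Of 75 tested, 2 were higher and 2 lower at a limma unadjusted p under 0.05, beside 4.36% of all genes, and 17 were higher and 14 lower without overlap, beside 12.5% and 19.6%. Cd72, a B cell receptor of Sema4d, was at 4.31, 6.16, 8.25 and 7.52 FPKM across the 4 samples (log2 difference 0.53). Rap1gap, which switches off the small GTPase Rap1, was at 10.7, 11.6, 14.1 and 22.4 FPKM (0.63). Ngef, an exchange factor that acts downstream of EphA receptors, was lower in both mutants, at 2.27, 2.71, 1.35 and 1.55 FPKM (-0.51). Ablim1, an actin-binding protein of netrin signalling, was at 19.2, 17.4, 11.2 and 14.2 FPKM (-0.50). The limma adjusted p was 0.994 for each of these 4. The most abundant pathway genes had small differences. Cfl1, the actin-severing cofilin, was at 654, 785, 721 and 927 FPKM, Rhoa at 315, 306, 287 and 265 FPKM, Itgb1, the integrin that binds Sema7a, at 124, 113, 111 and 102 FPKM, and Adam10, a protease that cleaves ephrins, at 41.1, 34.4, 41.0 and 45.5 FPKM.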

How the data were processed

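Bulk RNA from dorsal root ganglia was sequenced in 2 wild type and 2 Prdm12 mutant samples, grouped by their titles. FPKM per sample for 14405 genes, each reaching 1 FPKM in some sample, were deposited by the authors, with a list of 150 genes with group FPKM, a log2 fold change, a test score that was not used, and p-value and q-value columns, in Cuffdiff's format per the file headers; 149 of the 150 matched a matrix gene. CASAVA, TopHat2 2.1.2 and Cufflinks 2.2.1 with mm10 are named per the submitters' processing notes. For their settings, strandedness and scaling, the sources used here give nothing. Depth is unknown. FPKM totals were 620018 to 686830.

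Here limma 3.58.1 (R 4.3.3) was fitted on log2(FPKM + 1), mutant against wild type, letting the prior variance depend on mean level, over the 14040 genes whose mean reached 1 FPKM in 1 group or both. P-values were adjusted by Benjamini and Hochberg over all of them. Residual degrees of freedom were 2, to which the prior added 3.44. The pseudocount shrinks changes of low genes. Differences are on the log2(FPKM + 1) scale and fold values are ratios of mean FPKM. The script was tested on simulated data. Members always named with values in every sample were those in the authors' list, those at unadjusted p under 0.05, those at 2 FPKM or more without overlap and with a log2 difference of 0.3 or more, and the 2 most abundant (1 in small families) and the most different of each family; Sema3f, Nrp2, Efna4, Efnb3, Epha2, Epha7, Unc5b, Plxnc1 and Unc50 fall outside this rule and were given with values after these had been seen. Pathway genes were named at unadjusted p under 0.05 or as the 2 most abundant of a list. Members and lists were chosen with earlier results of these data known. Without strand, exons shared with other genes make values uncertain. By GENCODE M21 this touches 16 members, among them Sema4a (with a microRNA gene), Sema4c, Ephb4, Plxna1, Unc5a and Unc5c.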

Additional observations from a re-analysis of the deposited data

How the results depend on the processing

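Under the 12 alternatives, 0 members passed an adjusted p of 0.05 with limma in any fit, and the smallest adjusted p of a named member was 0.0875. Over all genes, 61 passed with the replicate number as a block and between 0 and 5 with 1 sample left out. With the replicate block, 17 members and 11 pathway genes had an unadjusted p under 0.05, beside 10.5% of all genes. The labels do not say that equal numbers mark shared animals or batches, and the deviations of replicate 1 in both groups correlated at 0.481 over genes. With a minimum of 5 FPKM, 36 members were tested, of which 3 had an unadjusted p under 0.05 (4.09% of all genes) and 6 were lower without overlap (19.3%). With 1 sample left out, the members at an unadjusted p under 0.05 numbered 5 to 19 (3.12% to 12.8% of all genes), those higher without overlap 19 to 24 (22.2% to 40.6%) and those lower 18 to 28 (32.8% to 37.2%), where the lone sample is assumed to vary like the other group, and the pathway genes at that p numbered 1 to 11. Without mutant 1, 22 of 64 members were higher, beside 40.6% of all genes. Of the 9 members at an unadjusted p under 0.05, 9 remained with a pseudocount of 0.1, 8 after rescaling by median ratios or quantile normalization, 7 after rescaling columns to equal totals and 5 without wild type 1 or without mutant 2. Another filter on levels, a prior variance without trend and the replicate block leave the log2 difference itself unchanged. Its sign could therefore not change in those fits. Counting their values, the log2 difference kept its sign in 382 of 395 values of 34 named members. The others came with 1 sample left out, over ranges of -0.37 to 0.0805 for Efnb1, -0.24 to 0.10 for Efna1, -0.0625 to 0.67 for Slit1, -0.53 to 0.20 for Slit2, -0.0591 to 0.38 for Slit3, -0.21 to 0.29 for Robo2, -0.0282 to 0.41 for Robo4, -0.76 to 0.0366 for Ntn4 and -0.35 to 0.0832 for Unc5a. For such results the cause was not tested. The unknown depth limits what can be said of members near 1 FPKM.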

Other observations

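Members that lie near each other in the genome did not always differ alike. Epha8 and Ephb2 lie 93.4 kb apart on chromosome 4, with log2 differences of -0.76 and -0.07. Sema3b and Sema3f lie 72.3 kb apart on chromosome 9, at 0.56 and 0.13. The ephrin genes Efna1, Efna3 and Efna4 lie within 52.2 kb of each other on chromosome 3, at -0.07, 0.09 and -0.19, and Sema4a lies 811 kb from Efna1 at 0.41. No relation between neighbours was tested.

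Ligands are set beside their receptors here. Efnb2 was lower in both mutants while Ephb4 overlapped, and Robo1 was lower while its ligands Slit1, Slit2 and Slit3 overlapped. Ntn1, Dcc, Unc5b and Unc5c were each lower in both mutants, while Unc5a overlapped. For Dcc, Unc5b and Unc5c a lower mutant mean was fixed by the minimum for testing. Sema7a was higher while Plxnc1, at 8.63, 14.2, 8.97 and 12.1 FPKM across wild type 1, wild type 2, mutant 1 and mutant 2, overlapped. Plxnc1 was highest in wild type 2, and its spread within the wild type was larger than the difference between the groups. Sema5a and Plxnb3 were both higher, at log2 differences of 0.35 and 0.39, which were 0.19 without wild type 2 and 0.14 without mutant 2. These are values without a test of any pair.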
